A study of Medicago truncatula with 6 samples.

Results

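The class III peroxidases are the largest family among the reactive oxygen genes of Medicago truncatula that the study inventoried. The members were taken as the 130 gene identifiers of the peroxidase section of that inventory, out of 50897 genes in the count files, and no expression value entered the choice. Over the 5 libraries, 50 members had a mean of at least 1 CPM in root hairs and 80 had a lower mean, where CPM is read pairs per 1000000 counted pairs of the library. At 20 h of Nod factor (NF) treatment the transcripts of Rip4, Rip6 and MtPrx04 were between 6.21- and 9.78-fold above the single control library. They passed an adjusted p of 0.05 (edgeR quasi-likelihood test), and no member did so after 4 h. At 4 h DESeq2 called 9 members and the exact test of edgeR 10, with 2.58 and 3.91% of all genes.

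Class III peroxidases are secreted plant haem enzymes. With hydrogen peroxide they oxidise phenolic compounds and cell wall proteins, which cross-links and stiffens the wall, and in another reaction cycle they can form reactive oxygen species that loosen it. The apoplastic superoxide from which the hydrogen peroxide arises is made by NADPH oxidases (Rboh proteins). Superoxide dismutases convert superoxide to hydrogen peroxide, which catalases and other peroxidases consume. Root hairs are single epidermal cells that grow at the tip, and NF, the lipochitooligosaccharide signals of rhizobia, act on them first in the legume symbiosis. The name Rip stands for rhizobium-induced peroxidase, and Rip1 is known from Medicago as an early NF-induced gene of the root epidermis.

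Root hairs were isolated from roots of 5-day-old wild-type Jemalong A17 seedlings, with root tips removed, each sample being pooled from many plants. Roots received pure water (control, 1 library analysed here, the second replicate), NF for 4 h (2 libraries) or NF for 20 h (2 libraries). The title of the control carries the 4 h time, so that NF and the longer time cannot be told apart in the 20 h comparison. All plants shared the genotype, and the control had no second library, so that no spread could be given for it. Each NF time had 2 independent biological replicates. The p-values rest on the spread between these libraries, with 2 residual degrees of freedom, moderated over all genes tested. In comparisons with the control, the single control library is assumed to vary like the NF libraries.

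The 5 libraries held between 39199411 and 47302574 counted read pairs, and 3 pairs corresponded to 0.0634 to 0.0765 CPM. The labelled material was checked with known genes. The 8 root hair markers were present in every library, from 4.17 CPM for RHS13 in the control to 942 CPM for RHS12 in NF 20 h replicate 2, and the stele gene MtSUNN was at 0 to 0.154 CPM. RSL4, a root hair growth regulator, was at 9.01 CPM in the control and between 15.9 and 19.4 CPM in the NF libraries, and the part of this in the peroxidase results was not tested. The NF response gene MtENOD11 was at 0.0439 CPM in the control, 8.05 and 2.88 CPM at 4 h, and 50.6 and 50.2 CPM at 20 h. In bulk samples, fewer cells of a type and less RNA per cell cannot be told apart.

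The family was expressed over a very wide range. Of the 130 members, 31 had no counted pair in any library, 25 had some pairs but stayed below the expression filter, and 74 entered the test among 22091 genes. The share of members at a mean of 1 CPM or more was 38.5%, against 33.5% of all genes listed. A member passed the filter also when a single library reached it, and the highest mean of a member left out was 0.132 CPM. Between 47 and 54 members reached 1 CPM in any one library, the highest number being that of the control.

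A few genes carried most of the peroxidase transcripts. In the control library the 4 most abundant members held 56.4% of all peroxidase pairs and the 10 most abundant 85.8%, and in the NF libraries these shares lay between 57.3 and 62.9% and between 88.4 and 89.6%. Peroxidases together made up 11967 CPM in the control, 15238 and 15909 CPM in the NF 4 h libraries, and 14501 and 14945 CPM in the NF 20 h libraries. All 4 NF libraries were thus above the control, which is a single library.

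Levels of different genes were compared per transcript length, as CPM per kilobase of transcript (FPKM). MtPrx17 (Medtr2g029740), MtPrx38 (Medtr4g095450), MtPrx36 (Medtr7g072510) and MtPrx32 (Medtr4g029190) led the order. On the FPKM scale MtPrx38 was at 1450 in the control, 1842 and 1478 at 4 h, and 1762 and 1452 at 20 h, a gene whose Arabidopsis relative AT3G49960 belongs to the root hair genes of that species. MtPrx36 was at 1089 FPKM in the control and between 1158 and 1311 FPKM in the NF libraries. Both genes therefore stayed within a narrow band, and their ranges did not overlap with each other.

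MtPrx17 stood above MtPrx38 in the NF libraries but not in the control. Its level was 1261 FPKM in the control, 2690 and 2352 FPKM at 4 h, and 1975 and 1878 FPKM at 20 h. The lowest NF value of MtPrx17 was above the highest value of MtPrx38 in any library. MtPrx32 ranged from 856 to 1544 FPKM and overlapped with both MtPrx36 and MtPrx38, so that the places from the second to the fourth were not separated for this gene.

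The next places fell to MtPrx100 (Medtr2g437770) with 652 to 1128 FPKM, MtPrx10 (Medtr2g029800) with 475 to 685 FPKM, MtPrx18 (Medtr4g133800) with 458 to 717 FPKM and MtPrx70 (Medtr5g074760) with 369 to 495 FPKM. Each of these ranges overlapped with that of its neighbour in the order. MtPrx35 (Medtr2g029910) and MtPrx41 (Medtr7g029030) completed the 10 highest, at 233 to 524 and 291 to 371 FPKM. The same 10 genes led when the values were not divided by transcript length.

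**Figure D1:**
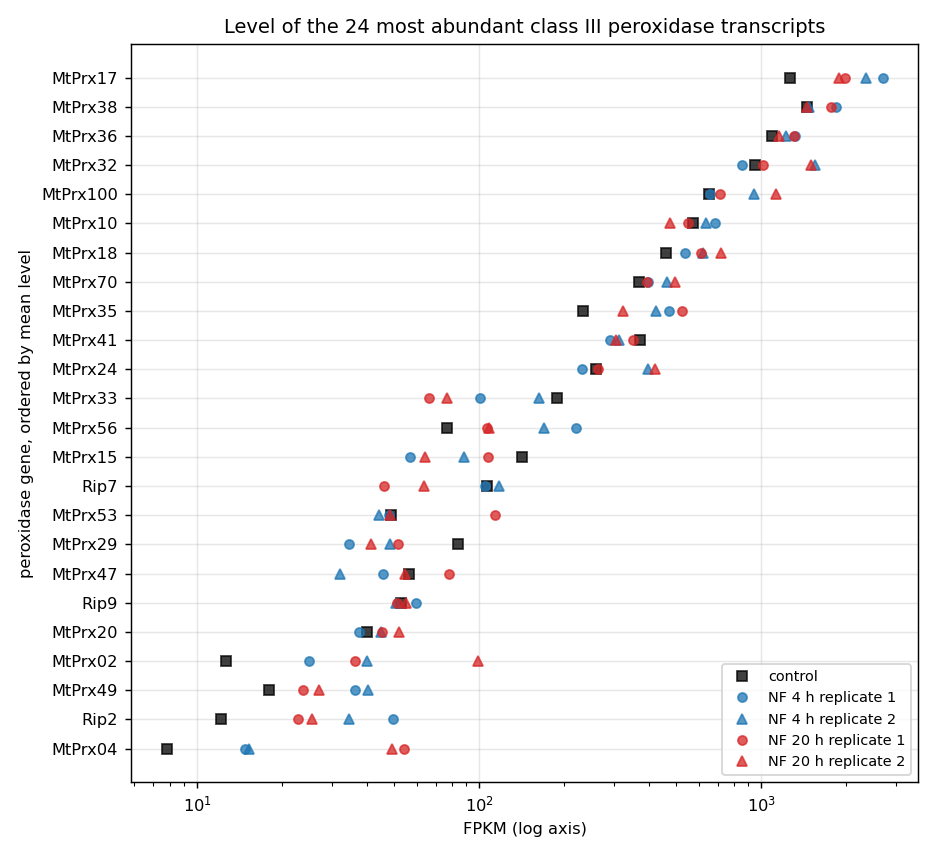
Level of the 24 most abundant peroxidase transcripts in each library, in FPKM on a log axis, ordered by the mean over the 3 treatments. The square is the control, blue points are NF 4 h and red points NF 20 h, with circles for replicate 1 and triangles for replicate 2. MtPrx17 lies at 1261 FPKM in the control and between 1878 and 2690 FPKM in the NF libraries, whereas MtPrx33, MtPrx15 and MtPrx29 have their control value to the right of the NF values.

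The first question was which peroxidases responded to NF. After 4 h none of the 74 members tested passed an adjusted p of 0.05 (edgeR quasi-likelihood test, Benjamini-Hochberg adjustment over all genes), where 0.684% of all genes did. At an unadjusted p under 0.05 there were 17 members, that is 23.0% of the members tested against 9.28% of all genes. Of these, 12 were higher and 5 lower, or 16.2 and 6.76% of the members, where 4.51 and 4.77% of all genes were. The exact test of edgeR called 10 members, where it called 3.91% of all genes, and DESeq2 called 9, where it called 2.58%. Leaving out 1 NF library at a time called between 1 and 4 members and between 0.950 and 1.67% of all genes. At 20 h 3 members passed, all of them higher, that is 4.05% of the members tested against 1.47% of all genes in both directions and 1.1% for higher genes. At an unadjusted p under 0.05 there were then 28 members, or 37.8% against 11.8% of all genes. Of these, 17 were higher and 11 lower, or 23.0 and 14.9% of the members, where 5.66 and 6.14% of all genes were.

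Of the 50 members at 1 CPM or more, 24 had both 4 h libraries above the control and 14 both below, that is 48.0 and 28.0%, where 31.3 and 39.6% of all genes at that level did. At 20 h these were 26 and 14 members, or 52.0 and 28.0%, where 35.2 and 31.8% of all genes did. The median log2 fold change of the members tested was 0.07 at 4 h and 0.16 at 20 h, where all genes tested had −0.03 and 0.00. Without regard to sign, the median log2 fold change of the members was 0.53 at 4 h against 0.22 for all genes, and 0.59 at 20 h against 0.24. Members at a mean of 1 CPM or more had 0.34 and 0.49, against 0.17 and 0.20 for all genes at that level. Between the 2 NF times 1 member passed, MtPrx04, where 0.0498% of all genes did, and 18 members had an unadjusted p under 0.05, that is 24.3% of the members tested against 10.7% of all genes. Of these, 7 were higher and 11 lower at 20 h, or 9.46 and 14.9% of the members, where 5.61 and 5.06% of all genes were. Of the 18, 13 had a mean of 1 CPM or more.

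**Figure D2:**
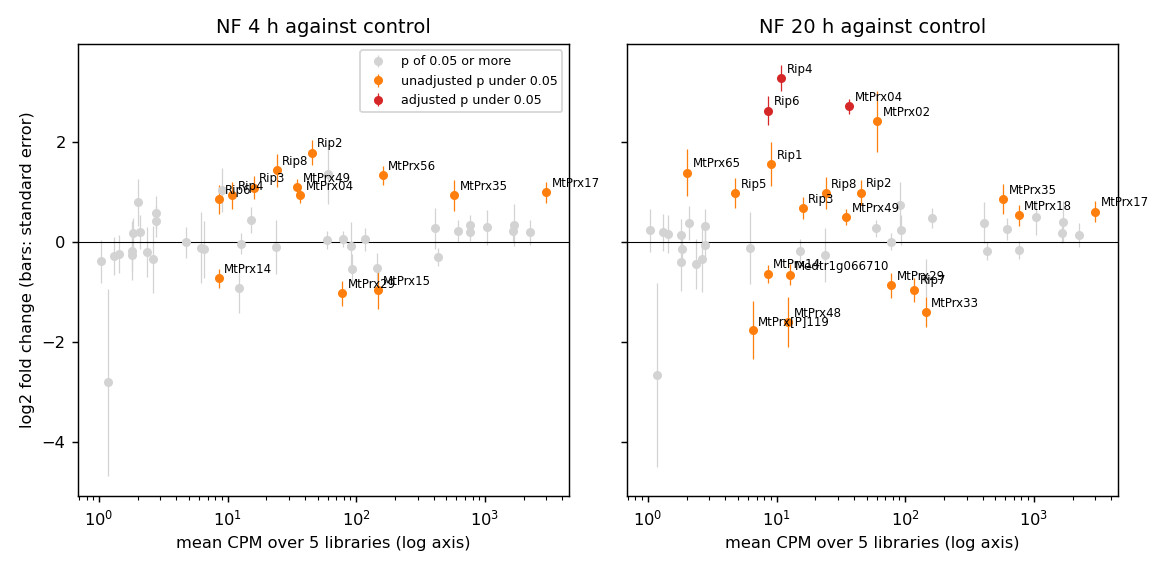
Log2 fold change of the 50 peroxidase genes that averaged 1 CPM or more, against that average on a log axis, for NF 4 h (left) and NF 20 h (right), both against the same control library. Bars are standard errors of the fit, red marks an adjusted p under 0.05 and orange an unadjusted p under 0.05. Rip4, Rip6 and MtPrx04 are the red points, at 3.29, 2.64 and 2.72 in the panel for 20 h.

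Rip4 (Medtr1g054205, chromosome 1) showed the largest rise among the called members. It was at 2.22 CPM in the control, 4.41 and 4.08 CPM at 4 h, and 18.1 and 25.2 CPM at 20 h. Every library of a later group lay above every library of the earlier one. At 20 h Rip4 was 9.78-fold higher than the control, with a log2 fold change of 3.29 ± 0.27 (SE) and an adjusted p of 0.0226 (edgeR quasi-likelihood test, Benjamini-Hochberg adjustment). At 4 h the log2 fold change was 0.94 ± 0.27, with an adjusted p of 0.351 in the same test. Between 20 h and 4 h it was 2.35 ± 0.21, with an adjusted p of 0.0739.

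MtPrx04 (Medtr7g107520, chromosome 7) was the most precisely measured of the rising genes, and its Arabidopsis relative AT1G05250 is a root hair gene. It was at 10.2 CPM in the control, 19.2 and 19.8 CPM at 4 h, and 70.3 and 63.7 CPM at 20 h. The groups were fully separated and the replicates close to each other. At 20 h it was 6.6-fold higher than the control, with a log2 fold change of 2.72 ± 0.15 (SE) and an adjusted p of 0.0165 (edgeR). It was also the member called between the NF times, with a log2 fold change of 1.78 ± 0.12 and an adjusted p of 0.0471 (edgeR). Without NF 20 h replicate 1 this adjusted p was 0.0784, and without NF 20 h replicate 2 it was 0.0511. At 4 h its log2 fold change was 0.94 ± 0.15, with an adjusted p of 0.0934 (edgeR).

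Rip6 (MtPrx79, Medtr6g008075, chromosome 6) was at 2.52 CPM in the control, 4.84 and 4.29 CPM at 4 h, and 12.8 and 18.5 CPM at 20 h. As for Rip4, the groups were separated and the step from 4 h to 20 h was wider than that from the control to 4 h. At 20 h it was 6.21-fold higher than the control, with a log2 fold change of 2.64 ± 0.29 (SE) and an adjusted p of 0.0329 (edgeR). Its level is uncertain, since both reads of its counted pairs together came to only 64.6% of its reads counted singly, against 92.2% over all genes. The part of this in the result was not tested.

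Of the 10 Rip genes, 9 were measured at a mean of 1 CPM or more. At 4 h, 6 of them had both libraries above the control and none had both below, where 31.3% of all genes at that level were above and 39.6% below. At 20 h, 7 were above and 1 was below, where the shares of all genes were 35.2 and 31.8%. The median log2 fold change of the 9 genes was 0.94 at 4 h and 0.99 at 20 h. As the name was given to genes for their induction by rhizobia, the direction of the group is not independent of the choice of names.

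Rip2 (MtPrx39, Medtr1g115900) had the largest difference at 4 h among the Rip genes. It was at 18.8 CPM in the control, 77.0 and 53.6 CPM at 4 h, and 35.3 and 39.7 CPM at 20 h. Both NF groups were above the control, and the 4 h libraries were above the 20 h libraries. The log2 fold change at 4 h was 1.79 ± 0.25 (SE) with an adjusted p of 0.0701, at 20 h 0.99 ± 0.25 with 0.187, and between 20 h and 4 h −0.80 ± 0.20 with 0.215 (edgeR). Rip2 passed at 4 h when any 1 of the 4 NF libraries was left out, with adjusted p-values between 0.00635 and 0.0385 (edgeR).

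Rip3 (MtPrx111, Medtr2g029560) and Rip8 (MtPrx81, Medtr4g029170) had the same order of groups as Rip2. Rip3 was at 9.43 CPM in the control, 19.5 and 20.8 CPM at 4 h, and 12.9 and 17.4 CPM at 20 h. Rip8 was at 11.6 CPM in the control, 28.7 and 34.0 CPM at 4 h, and 17.2 and 28.6 CPM at 20 h. The log2 fold change at 4 h was 1.09 ± 0.23 for Rip3 and 1.44 ± 0.32 for Rip8, with adjusted p-values of 0.177 and 0.217 (edgeR). The 2 replicates of Rip8 at 20 h differed more from each other than the higher one did from the 4 h libraries.

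Rip1 (MtPrx01, Medtr5g074860) was at 4.12 CPM in the control, 9.43 and 7.58 CPM at 4 h, and 16.3 and 8.16 CPM at 20 h. All NF libraries were above the control, but the 2 libraries at 20 h enclosed the first library at 4 h. Its log2 ratio to the control was 1.04 ± 0.44 (SE) at 4 h and 1.57 ± 0.43 at 20 h, with adjusted p-values of 0.593 and 0.244 (edgeR). Rip5 (MtPrx05, Medtr2g088770), whose Arabidopsis relative is AT3G01190, was at 3.42 CPM in the control, 3.07 and 3.78 CPM at 4 h, and 5.62 and 7.93 CPM at 20 h. It stood apart from the control only at the later time, with a log2 fold change of 0.99 ± 0.31 and an adjusted p of 0.292 (edgeR).

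Rip7 (MtPrx11, Medtr2g029820) and Rip9 (MtPrx16, Medtr2g029750) had no higher level in NF. Rip7 was at 143 CPM in the control, 140.4 and 157 CPM at 4 h, and 61.5 and 85.8 CPM at 20 h. Its 20 h libraries lay below all the others, with a log2 fold change of −0.95 ± 0.23 (SE) against the control and an adjusted p of 0.155 (edgeR). Rip9 was at 76.6 CPM in the control and between 73.4 and 86.4 CPM in the NF libraries, with log2 fold changes of 0.06 ± 0.17 and 0.01 ± 0.17. Rip10 (Medtr7g107500) had no counted pair in any library, so that no fold change was given.

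**Figure D3:**
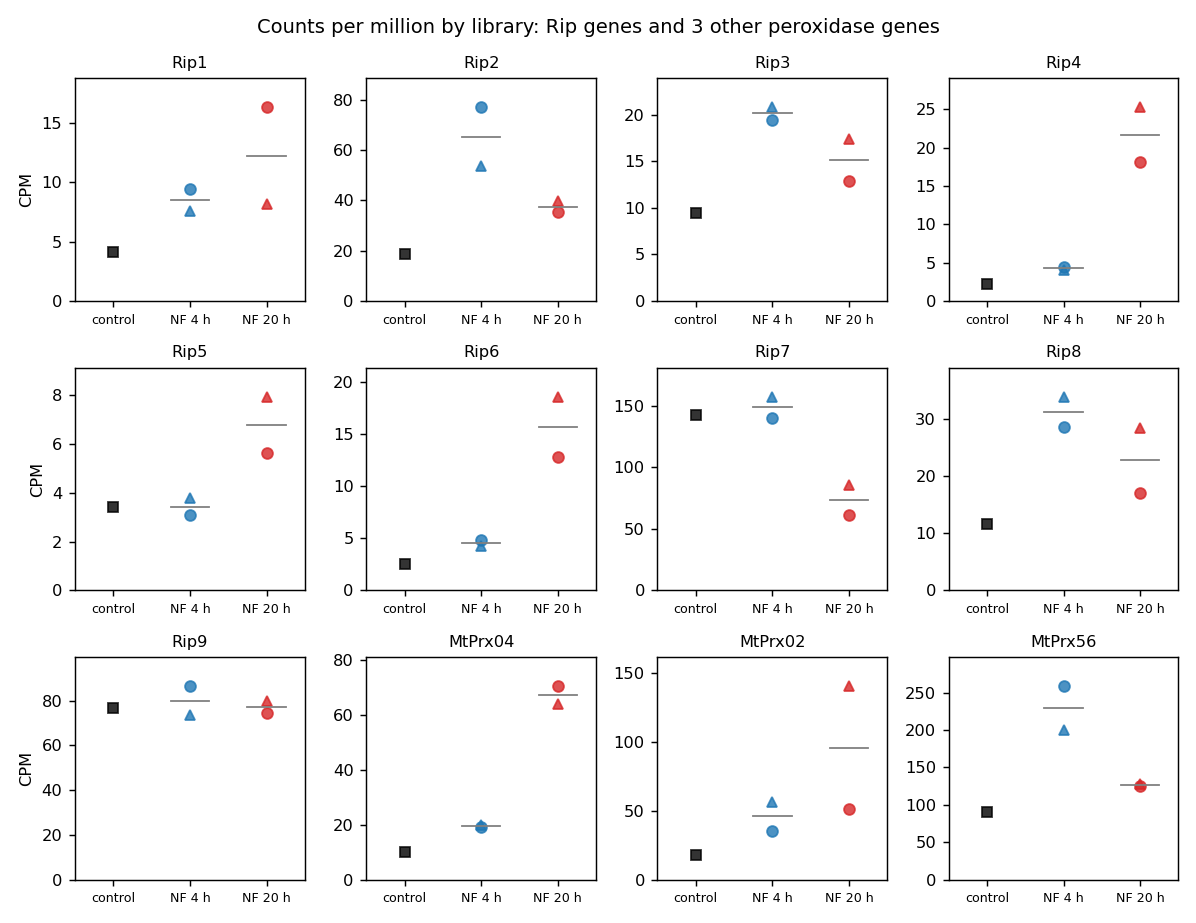
CPM of 9 Rip genes, MtPrx04, MtPrx02 and MtPrx56 in each library, on linear axes from 0. The square is the control, circles are replicate 1 and triangles replicate 2 of each NF time, and the grey line is the mean of 2 replicates. Rip4, Rip6 and MtPrx04 are highest at 20 h, Rip2 and MtPrx56 at 4 h, and Rip9 lies between 73.4 and 86.4 CPM everywhere.

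Other members with the largest higher levels at 4 h were MtPrx56, MtPrx49 and MtPrx02. MtPrx56 (Medtr1g066380), the relative of the Arabidopsis root hair gene AT2G37130, was at 90.7 CPM in the control, 258 and 200.3 CPM at 4 h, and 125 and 128 CPM at 20 h. Its log2 ratio to the control was 1.34 ± 0.20 (SE) at 4 h and 0.48 ± 0.20 at 20 h, with adjusted p-values of 0.0809 and 0.46 (edgeR). MtPrx49 (Medtr4g029180) was at 21.3 CPM in the control, 43.2 and 48.1 CPM at 4 h, and 28.3 and 32.3 CPM at 20 h. Its log2 fold change at 4 h was 1.10 ± 0.17, with an adjusted p of 0.0841 (edgeR). Both genes were thus separated from the control at either time, and their 20 h libraries lay between the control and the 4 h libraries.

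MtPrx02 (Medtr5g074740) was at 17.9 CPM in the control, 35.3 and 56.8 CPM at 4 h, and 51.2 and 140.5 CPM at 20 h. Its replicates differed strongly, and the lower 20 h library was within the range of the 4 h libraries. The log2 ratio to the control was 1.36 ± 0.61 (SE) at 4 h and 2.42 ± 0.61 at 20 h, with adjusted p-values of 0.659 and 0.221 (edgeR). When 1 NF library was left out, the adjusted p at 20 h was 0.0253 without NF 20 h replicate 1, 0.047 without NF 4 h replicate 1, 0.0516 without NF 4 h replicate 2 and 0.105 without NF 20 h replicate 2 (edgeR). MtPrx65 (Medtr1g086320) also belonged to the 6 largest differences upward at 20 h, from 1.03 CPM in the control to 2.38 and 3.04 CPM, with an adjusted p of 0.343 (edgeR).

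Among the 10 most abundant members, MtPrx17 and MtPrx35 had the largest differences from the control. MtPrx17 was at 1864 CPM in the control, 3976 and 3476 CPM at 4 h, and 2919 and 2775 CPM at 20 h. Its log2 ratio to the control was 1.00 ± 0.20 (SE) at 4 h and 0.61 ± 0.20 at 20 h, with adjusted p-values of 0.172 and 0.326 (edgeR). MtPrx17 made up 1862 of the 3607 CPM by which the mean summed peroxidase level at 4 h was above the control, and 983 of 2756 CPM at 20 h. MtPrx35 was at 341 CPM in the control, 689 and 619 CPM at 4 h, and 767 and 474 CPM at 20 h, with a log2 fold change of 0.94 ± 0.31 at 4 h and an adjusted p of 0.43 (edgeR). The log2 fold changes of the other 8 genes lay between −0.30 and 0.34 at 4 h and between −0.18 and 0.54 at 20 h.

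No member was called lower by the quasi-likelihood test with treatment as its only term, the expression filter and all 5 libraries. At 20 h DESeq2 called 5 members lower, with 1.53% of all genes, and the exact test 9, with 3.03%. Among the 9 was MtPrx75, which passed the expression filter only through the control, so that the filter fixed its direction. MtPrx44, MtPrx28 and MtPrx67 (Medtr4g083710), also at a mean under 1 CPM, were among them too. MtPrx33, MtPrx48 and MtPrx[P]119 were also called lower at 20 h by the quasi-likelihood test on only the groups compared and with either 4 h library left out. The largest differences downward at 20 h among members at 1 CPM or more were those of MtPrx23, MtPrx[P]119, MtPrx48, MtPrx33, Rip7 and MtPrx29. MtPrx33 (Medtr7g072480) was at 227 CPM in the control, 122 and 197 CPM at 4 h, and 79.9 and 92.7 CPM at 20 h. All NF libraries were below the control and the 20 h libraries below those of 4 h. Its log2 ratio to the control was −0.51 ± 0.30 (SE) at 4 h and −1.40 ± 0.30 at 20 h, with adjusted p-values of 0.765 and 0.111 (edgeR).

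The gene next to it, MtPrx[P]119 (Medtr7g072490), was at 9.61 CPM in the control, 4.87 and 12.5 CPM at 4 h, and 2.24 and 3.42 CPM at 20 h. Its 4 h libraries enclosed the control and its 20 h libraries lay below, with a log2 fold change of −1.76 ± 0.58 (SE) and an adjusted p of 0.284 (edgeR). The reads of its counted pairs came to only 75.5% of its single reads, so that its level is uncertain. The third gene of this group, MtPrx36, did not follow, with log2 fold changes of 0.22 ± 0.19 and 0.18 ± 0.19.

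MtPrx29 (Medtr5g074970) was at 126 CPM in the control, 51.5 and 71.9 CPM at 4 h, and 76.6 and 61.5 CPM at 20 h. Its log2 ratio to the control was −1.03 ± 0.25 (SE) at 4 h and −0.86 ± 0.25 at 20 h, with adjusted p-values of 0.217 and 0.225 (edgeR). MtPrx14 (Medtr4g127670), the relative of AT4G30170, had the closest replicates of the lower members, at 12.2 CPM in the control, 7.4 and 7.37 CPM at 4 h, and 7.77 and 8.01 CPM at 20 h. Its log2 ratio to the control was −0.73 ± 0.18 at 4 h and −0.63 ± 0.18 at 20 h, with adjusted p-values of 0.234 and 0.226 (edgeR). For both genes the 2 NF times had nearly the same level.

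MtPrx48 (Medtr6g043240) was at 22.6 CPM in the control, 7.59 and 16.3 CPM at 4 h, and 5.65 and 9.15 CPM at 20 h, and a log2 ratio of −1.61 ± 0.50 (SE) to the control at 20 h and an adjusted p of 0.252 (edgeR). MtPrx15 (Medtr2g029850) was at 225 CPM in the control, 91 and 141 CPM at 4 h, and 171 and 103 CPM at 20 h, with a log2 fold change of −0.96 ± 0.38 at 4 h and an adjusted p of 0.511 (edgeR). MtPrx47 (Medtr4g132110) was at 97.8 CPM in the control, 78.8 and 55.8 CPM at 4 h, and 136 and 94.7 CPM at 20 h, so that it was below the control only at 4 h. MtPrx23 (Medtr7g093370) was at 3.71 CPM in the control, at 0 and 1.07 CPM at 4 h, and at 0.0238 and 1.12 CPM at 20 h. At both times replicate 1 was at or near 0 and replicate 2 near 1 CPM, and the standard errors of its log2 fold changes were 1.86 and 1.84.

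**Figure D4:**
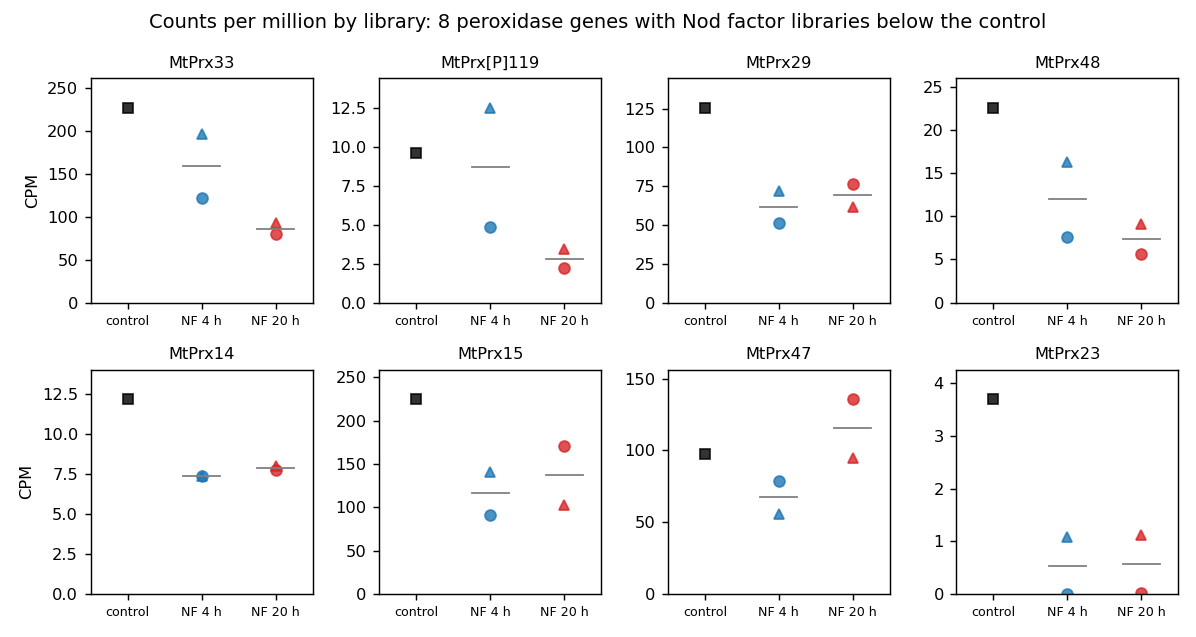
CPM by library of 8 peroxidase genes with NF libraries below the control, on linear axes from 0. The square is the control, circles are replicate 1 and triangles replicate 2 of each NF time, and the grey line is the mean of 2 replicates. MtPrx33 goes from 227 CPM in the control to 79.9 and 92.7 CPM at 20 h, and MtPrx23 has replicate 1 at 0 CPM and 0.0238 CPM.

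Between the NF times, the members with the largest higher level at 20 h were Rip4, MtPrx04, Rip6, Rip5, MtPrx53 and MtPrx47. The log2 fold change of Rip6 was 1.78 ± 0.23 (SE) with an adjusted p of 0.0943, and that of Rip5 was 0.99 ± 0.25 with 0.226 (edgeR). MtPrx53 (Medtr4g046713) owed its place to 1 library, with 72.4 CPM in the control, 71.8 and 65.8 CPM at 4 h, and 169 and 72.3 CPM at 20 h. The members with the largest lower level at 20 h were MtPrx[P]119, Rip7, MtPrx33, MtPrx56, Rip2 and MtPrx50. The log2 fold change of Rip7 was −1.01 ± 0.19 and that of MtPrx56 −0.86 ± 0.16, both with an adjusted p of 0.141 (edgeR). MtPrx50 (Medtr1g038680) was at 14.0 CPM in the control, 15.5 and 22.5 CPM at 4 h, and 12.5 and 12.1 CPM at 20 h. Of the 50 members at 1 CPM or more, 13 had both 20 h libraries above both 4 h libraries and 14 had both below, that is 26.0 and 28.0%, where 22.4 and 17.1% of all genes at that level were.

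The putative orthologs of Arabidopsis root hair genes were 9 members, of which 8 were measured at 1 CPM or more. They ranged from MtPrx38 and MtPrx100 among the 5 highest members to MtPrx12 (Medtr2g029815) at 1.61 to 2.15 CPM. MtPrx100 was at 819.9 CPM in the control, 829.7 and 1185 CPM at 4 h, and 900.2 and 1418 CPM at 20 h, and MtPrx06 (Medtr2g008710) at 26.1, 15.5, 33.6, 15.2 and 28.7 CPM in the same order. The replicates of both genes differed more than the treatments. The ninth, MtPrx89 (Medtr7g086820), had 1 pair in the control and none elsewhere. At 20 h, 5 of the 8 genes had both libraries above the control and 2 both below, where 35.2 and 31.8% of all genes at that level did, and MtPrx04 was the only one called among them.

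By the locus numbers, 56 members fell into 12 groups of at least 3 neighbouring genes. The largest was a run of 13 genes of chromosome 2, from Rip3 to Medtr2g029930, of which 10 had a mean of 1 CPM or more. Together these genes made up 3465 CPM in the control, 5952 and 5386 CPM at 4 h, and 4787 and 4235 CPM at 20 h, most of it from MtPrx17. Neighbours in the run differed widely in level, as MtPrx30 (Medtr2g029730) was at 0.382 FPKM and MtPrx17 at 1261 FPKM in the control.

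At 4 h, 5 of the 10 genes had both libraries above the control, 1 had both below and 4 overlapped, and at 20 h these numbers were 4, 4 and 2. Of all genes at 1 CPM or more, 31.3% were above and 39.6% below at 4 h, and 35.2% above and 31.8% below at 20 h, so that the counts of the run at 20 h lay near the shares of all genes. Their median log2 fold change was 0.12 at 4 h and −0.06 at 20 h. Rip3, MtPrx17 and MtPrx35 were on the higher side at both times, MtPrx15 on the lower side, and Rip7 on the lower side at 20 h. MtPrx12 is named here with a limit, since the reads of its counted pairs came to only 54.2% of its single reads.

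**Figure D5:**
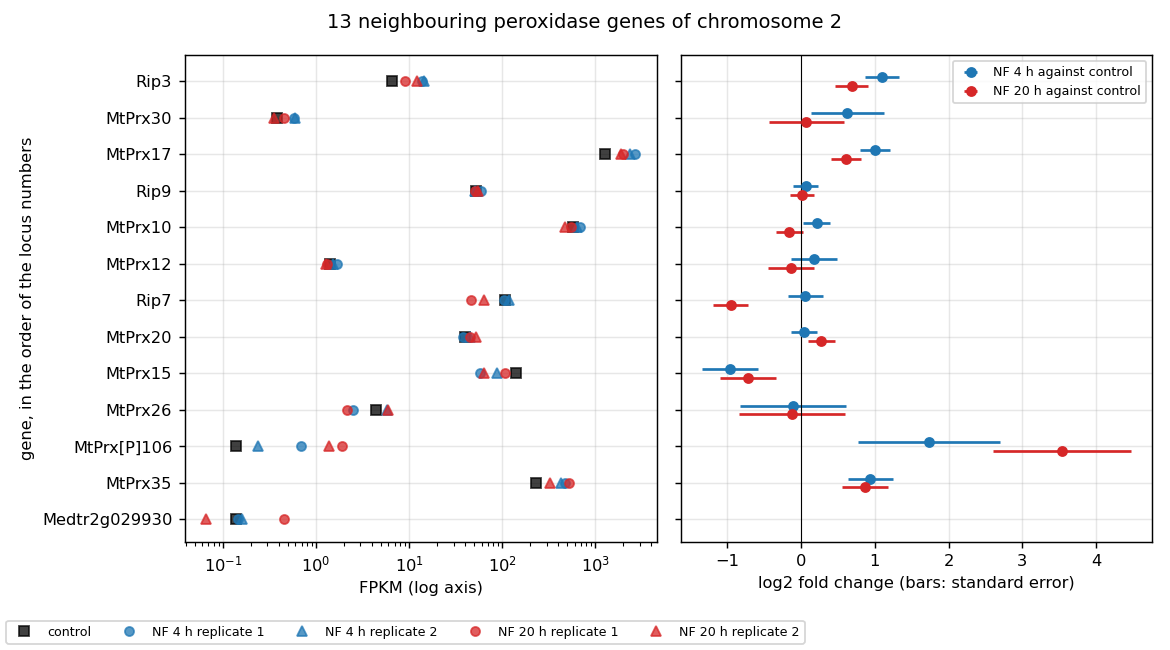
The 13 neighbouring peroxidase genes of chromosome 2 in the order of their locus numbers. Left, FPKM in each library on a log axis, with the square for the control, blue for NF 4 h, red for NF 20 h, circles for replicate 1 and triangles for replicate 2, and values of 0 not drawn. Right, log2 fold change against the control with its standard error. Levels run from below 1 FPKM to 2690 FPKM for MtPrx17, and log2 fold changes of both signs occur in the run.

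The 4 neighbours of chromosome 4, Rip8, MtPrx49, MtPrx32 and MtPrx24 (Medtr4g029200), were all measured at 1 CPM or more, and at 20 h both libraries were above the control for each of them, where 35.2% of all genes at that level were. Their log2 fold changes at 20 h ran from 0.39 to 0.99, with no call by the quasi-likelihood test with treatment as its only term. MtPrx24 was at 336 CPM in the control, 299 and 514 CPM at 4 h, and 340.1 and 541 CPM at 20 h, and MtPrx32 had its higher values in the same libraries. For these 2 genes the spread between replicates was as wide as the difference from the control, and it had the same direction at both NF times. Replicate 2 was 1.80 and 1.48 times replicate 1 for MtPrx32 (Medtr4g029190) at 4 h and 20 h, and 1.72 and 1.59 times for MtPrx24. The 6 neighbours of chromosome 2 annotated as lignin biosynthetic peroxidases were close to silent. They summed to 2.81 CPM in the control, 1.25 and 1.4 CPM at 4 h, and 0.381 and 0.486 CPM at 20 h, and 3 of them had no pair. MtPrx44 (Medtr2g084000) went from 1.43 CPM in the control to 0.0477 and 0.275 CPM at 20 h, and MtPrx28 (Medtr2g084020) from 1.32 CPM to 0.310 and 0.190 CPM, with adjusted p-values of 0.201 and 0.146 (edgeR).

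The annotation texts divided the family unevenly. The 81 members annotated as peroxidase family protein included 30 at 1 CPM or more and summed to 6088 CPM in the control, and 13 members annotated as class III peroxidase included 8 and summed to 5367 CPM. The 18 cationic peroxidases, with 9 at 1 CPM or more, summed to 501 CPM. Their median log2 fold change between the NF times was −0.62, where members at 1 CPM or more had 0.03. Of the 9, 5 had both 20 h libraries below those of 4 h and 3 had both above. Of all genes at that level, 17.1% were below and 22.4% above. MtPrx04, the only member called between the NF times, was among the 3 above. Of the 8 members whose names carry [P], 4 had no pair and MtPrx[P]119 was the only one at 1 CPM or more.

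Some changes were those of members with a mean below 1 CPM over the 5 libraries. MtPrx87 (Medtr1g086490) was at 0.0877 CPM in the control, 0.600 and 0.332 CPM at 4 h, and 1.1 and 1.75 CPM at 20 h, with a log2 ratio of 3.98 ± 0.81 (SE) to the control at 20 h and an adjusted p of 0.0898 (edgeR). MtPrx[P]106 (Medtr2g029880), of the chromosome 2 run, was at 0.0877 CPM in the control, 0.438 and 0.153 CPM at 4 h, and 1.22 and 0.888 CPM at 20 h, with an adjusted p of 0.174 (edgeR). MtPrx83 (Medtr5g033470) had no pair in the control and 29 pairs in the 4 h libraries, which is at least 5.31-fold higher than a floor of 3 pairs. MtPrx75 (Medtr6g043460) had 25 pairs in the control and none at 20 h, at least 16.3-fold lower against 3 pairs over that group. MtPrx87 and MtPrx[P]106 passed the expression filter only through NF libraries, MtPrx83 only through its 4 h libraries and MtPrx75 only through the control. The filter thus fixed the direction of all these differences. The 4 genes of this paragraph were chosen after their values were seen.

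Of the other 15 sections of the inventory 6 were taken, with 41 genes: the NADPH oxidases, superoxide dismutases, catalases, ascorbate peroxidases, glutathione peroxidases and peroxiredoxins. The other 9 sections, among them the glutaredoxins and thioredoxins, were not analysed here. The 41 genes gave no call at an adjusted p of 0.05 in any comparison (edgeR), and 37 of them were tested. Of all genes, 0.684% were called at 4 h, 1.47% at 20 h and 0.0498% between the NF times. With 37 genes tested, having no call lay near these shares. At an unadjusted p under 0.05 there was 1 gene higher and none lower at 4 h, where 4.51 and 4.77% of all genes were. This gene, Medtr1g100643, is listed with the ascorbate peroxidases but annotated as a transmembrane ascorbate ferrireductase. At 20 h there were 1 higher and 4 lower, where 5.66 and 6.14% of all genes were. DESeq2 and the exact test each called 0 of them at 4 h, 1 at 20 h and 1 between the NF times. Of all genes DESeq2 called 2.58, 4.10 and 3.25% in that order, and the exact test 3.91, 5.98 and 4.16%. Their median log2 fold change was −0.02 at 4 h and 0.12 at 20 h. They summed to 7317 CPM in the control and to between 6775 and 7372 CPM in the NF libraries.

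The 10 NADPH oxidases, which supply the superoxide, were led by MtRbohD (Medtr3g098320), at 782 CPM in the control, 626 and 586 CPM at 4 h, and 914 and 554 CPM at 20 h. Its 20 h libraries lay on either side of the control, with log2 fold changes of −0.37 ± 0.31 (SE) and −0.09 ± 0.31 and adjusted p-values of 0.896 and 0.963 (edgeR). MtRbohG (Medtr7g113130) was at 159 CPM in the control, 133 and 145 CPM at 4 h, and 90.9 and 78.3 CPM at 20 h. The groups did not overlap, and the log2 fold change at 20 h was −0.91 ± 0.17 with an adjusted p of 0.0769 (edgeR). The main catalase (Medtr3g115370), which breaks down hydrogen peroxide, was at 673 CPM in the control and between 557 and 590 CPM in the NF libraries, with adjusted p-values of 0.895 and 0.701 (edgeR). The most abundant ascorbate peroxidase (Medtr4g061140), an intracellular enzyme of another peroxidase class, was at 3105 CPM in the control and between 2714 and 3037 CPM in the NF libraries.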

How the data were processed

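Each deposited file gave, per transcript of genome release Mt4.0, the read pairs assigned to it as raw counts, with its length and the reads counted singly. Per the labels and methods, the authors aligned trimmed paired reads to the transcripts with Bowtie 2 (Bowtie2 2.0 in the processing notes), and per the file headers pairs with equally good second hits were dropped, which lowers the counts of near-identical genes. CPM used the library total and FPKM the deposited length. Counts of 5 libraries were fitted with edgeR 4.0.16 (quasi-likelihood, library-total scaling, filterByExpr by group, R 4.3.3) and adjusted by Benjamini-Hochberg over all 22091 genes tested, with a limit of 0.05. The steps were tested on simulated data with changes of a single fixed size, a fixed spread and no shared replicate effect. Smaller changes were not covered. DESeq2 1.42.0, TMM factors, the exact test and other settings were alternatives. Members and lists were chosen with earlier results of these data known. Named genes were the Rip genes, the 10 highest by FPKM, every called member, the 6 largest differences in each direction among members of 1 CPM or more with separated libraries, and orthologs of Arabidopsis root hair genes. The remaining control library was not analysed here.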

Additional observations from a re-analysis of the deposited data

Results flagged for a closer look

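MtPrx04 (Medtr7g107520) differed between the NF times by the test of that difference itself, with a log2 ratio of 1.78 ± 0.12 (SE) for 20 h over 4 h and an adjusted p of 0.0471 (edgeR quasi-likelihood test, Benjamini-Hochberg adjustment), and both 20 h libraries were above both 4 h libraries.

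Rip10 (Medtr7g107500) had no counted pair in any library, yet 300 reads were counted singly on its transcript, which is 427 bases long. These were 11 reads in the control, 31 and 32 at 4 h, and 88 and 138 at 20 h, so that every NF library was above the control. Per 1000000 single reads of the library they were 0.111 in the control, 0.329 and 0.375 at 4 h, and 0.967 and 1.34 at 20 h. No test was run on single reads.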

How the results depend on the processing

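The 3 calls at 20 h (Rip4, Rip6, MtPrx04) were also made under TMM factors, DESeq2, the exact test, no expression filter, the fit of only the groups compared, and without each NF replicate. At an adjusted p under 0.01 there were 0 calls in each comparison. Against the control, calls were 9 at 4 h and 11 at 20 h by DESeq2 (of all genes 2.58 and 4.10%), 10 and 17 by the exact test (3.91 and 5.98%), 4 and 5 with no expression filter (1.46 and 2.38%), and 4 and 7 with only the groups compared (1.68 and 2.83%). Between the NF times they were 9 by DESeq2 (3.25%), 10 by the exact test (4.16%) and 4 with no filter (1.02%). Leaving out 1 NF replicate gave 1 to 4 calls at 4 h (0.950 to 1.67%), 4 to 8 at 20 h (1.59 to 2.89%) and 0 to 3 between the NF times (0 to 0.489%), where a lone library is assumed to vary like the other group. The cause of these differences was not tested.

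The log2 fold changes of 43 members, 36 by the naming rule and 7 named besides, were computed under the alternatives that tested them, and 45 of 1288 values had the other sign, none for a called member. Among the values reported, that of MtPrx32 at 4 h ranged from −0.15 to 0.71 when a replicate was left out, and that of Rip9 lay between −0.0616 and 0.1732 at 4 h. At 20 h the same value of Rip9 lay between −0.0421 and 0.0612. The log2 difference of the summed level from the control, 0.38 at 4 h and 0.30 at 20 h, was 0.23 and 0.27 without the 3 members with the most counts in the control. Chosen after seeing the data, it was also computed without the members with the most counts over the 5 libraries, and was 0.23 and 0.23 without the first (MtPrx17) and 0.22 and 0.22 without the first 3.

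The replicate numbers are shared by the NF times, but no label says what a number marks, and the control has 1 number. The difference of replicate 2 from replicate 1 correlated between the NF times over all tested genes (Pearson's r = 0.592, across genes, which are not independent). Of the 50 members at 1 CPM or more, 8 were at least 1.5 times higher in replicate 2 at both times and 0 in replicate 1, where 2.81 and 1.56% of all genes at that level were. MtPrx23 had no ratio at 4 h, since its replicate 1 was at 0 CPM against 1.07 CPM in replicate 2, and is not among the 8. At 20 h its replicates were at 0.0238 and 1.12 CPM. With the replicate block the calls were 19 members at 4 h (14 higher, 5 lower), 28 at 20 h (18 higher, 10 lower) and 18 between the NF times, where 7.47, 12.2 and 8.84% of all genes were called, and 2, 5 and 2 of the other reactive oxygen genes. The 4 neighbours of chromosome 4 were among the calls at 20 h. With the block, the log2 fold change at 20 h was −0.0073 for MtPrx38 and −0.0206 for Rip9. The block left 1 residual degree of freedom. With 1 control library and 2 libraries for each NF time, differences under the replicate spread were not detectable.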

Other observations

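Single reads gave values for a few other members without a counted pair. Medtr0286s0010, on an unplaced scaffold, had 106 single reads in the control, 188 and 82 at 4 h, and 563 and 387 at 20 h. Medtr5g074770 had 2 in the control, 14 and 5 at 4 h, and 17 and 9 at 20 h. All other members of this kind had 9 or fewer over the 5 libraries.

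For the 72 members with at least 100 single reads, the reads of counted pairs were set against the single reads. The ratio was under 80% for 13 of them, with a median of 92.6% over the 72. It is not a strict share, since it was 107% for Medtr1g066680 with 15 single reads. MtPrx12, MtPrx08 (Medtr5g022870) and Medtr1g009750 were at 54.2, 54.7 and 56.3%, and their levels are uncertain.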
